A study of Homo sapiens with 16 samples.

Results

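The MYC, MAX and MXD network is the set of DNA-binding partners that share MAX. Its members were taken by symbol from the gene-level read counts, and MYC, MAX, MXD1, MXD3, MXD4, MXI1, MNT and MGA were all present, 8 of 23354 genes. All 8 also passed the filter on low counts that left 14215 genes for testing. The cells were MM1S, a multiple myeloma line sensitive to glucocorticoids, and MM1R, a resistant line of the same origin. Each line received vehicle, 0.1 μM TAK-981 (an inhibitor of the SUMO-activating enzyme E1), 1 μM dexamethasone (Dex, a synthetic glucocorticoid), or both drugs at those doses (combo), for 48 h. The 8 groups had 2 libraries each, 16 in all. There is a single established line of each kind, so the lines stand for themselves and not for sensitive and resistant myeloma. The labels name duplicates without saying whether they were separate cultures, and p-values therefore measure only the spread between these libraries. A single fit pooled that spread over the 8 groups, although it was uneven. Against counting noise alone, the chi-square per degree of freedom between duplicates was 22.6 for TAK-981 and 20.4 for Dex in MM1S. The other groups gave 2.15 to 9.66, so p-values for those 2 groups rest in part on quieter ones.

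The libraries held 15707587 to 20644510 counted reads each for MM1S, and 18987739 to 24796539 for MM1R. The plasma cell markers of the lines were expressed in every library, with a summed level of 3370 to 6135 CPM (the counts-per-million scale). T cell, myeloid, stromal and epithelial markers summed to at most 5.76 CPM each, and CD3D and COL3A1 were at 0 throughout. The glucocorticoid receptor gene NR3C1 stood at 239 to 357 CPM in MM1S and at 16.7 to 20.5 CPM in MM1R. FKBP5, a classical glucocorticoid target, averaged 68.8 CPM with vehicle and 1663 CPM with Dex in MM1S, against 94.7 and 95.7 CPM in MM1R.

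As background, MAX is the obligate partner of the network. MYC-MAX dimers bind the E-box CACGTG and activate genes for ribosome biogenesis, metabolism and the cell cycle, whereas the MXD proteins and MNT form dimers with MAX that recruit the SIN3-histone deacetylase corepressor to the same sequence. MGA is a large MAX partner that belongs to the variant Polycomb complex PRC1.6, which silences germline genes. In myeloma, MYC is a common oncogenic driver and is maintained in part by the plasma cell factor IRF4.

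With TAK-981, MYC fell and MXD4 rose in both lines, although with the GAPDH count as the reference, described below, MYC lay above 0 (called in MM1R only). Under edgeR's quasi-likelihood test with Benjamini-Hochberg adjustment over all tested genes, 7 of the 8 members passed an adjusted p of 0.05 in MM1S (4 higher, 3 lower), where 49% of all genes did. In MM1R 5 passed (3 higher, 2 lower), where 53.4% of all genes did. Dex changed 7 members in MM1S (5 higher, 2 lower) against 42.3% of all genes. In MM1R Dex changed none, as 0% of all genes passed with edgeR or with DESeq2, although 395 genes had an unadjusted p under 0.05, with no member among them. Each effective drug changed a large share of all genes, so a count of members is read beside that share and the members are described gene by gene.

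**Figure D1:**
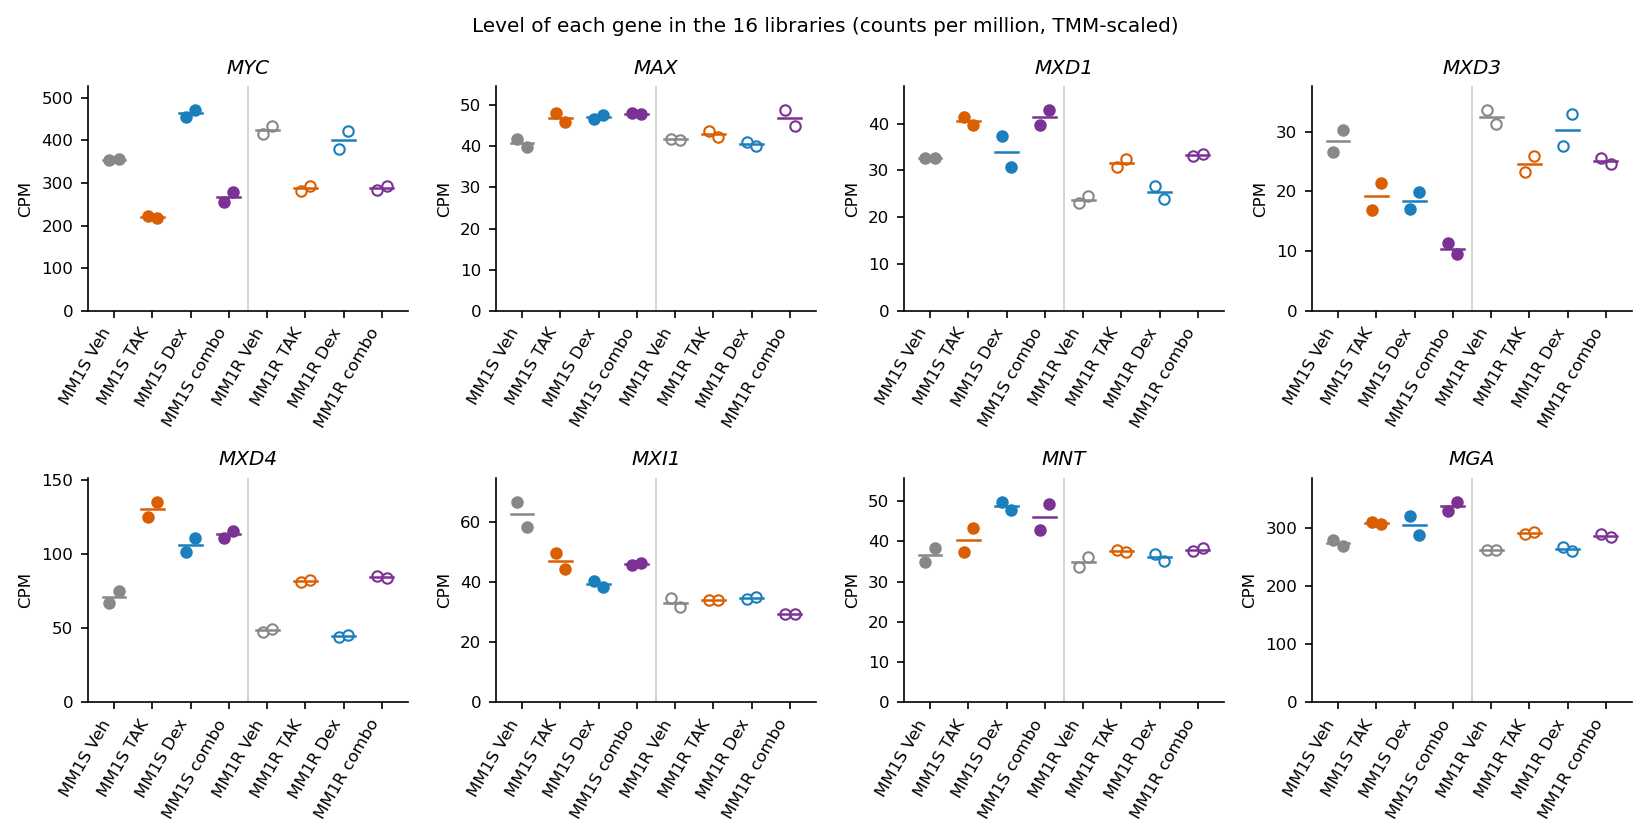
Level of each network gene, in CPM on the vertical axis, in the 16 libraries grouped by line and treatment on the horizontal axis. Points are libraries (filled MM1S, open MM1R) and bars are means of 2. MXD3 spans 9.57 to 33.6 CPM and MXD4 spans 44.1 to 135 CPM, whereas MAX stays between 39.9 and 48.7 CPM.

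Compared per kilobase of the gene length in the count table, with vehicle, MYC was by far the most abundant member, at 132 CPM per kb in MM1S and 158 in MM1R. In MM1S it was followed by MGA (19.8), MXD4 (17.9), MXI1 (15.7), MAX (11.2), MXD3 (8.77), MNT (7.58) and MXD1 (5.61 CPM per kb). MXD4 and MXI1 nearly touched, at 16.8 to 18.9 and 14.7 to 16.7 CPM per kb in the 2 libraries. In MM1R the order after MYC was MGA (19.0), MXD4 (12.2), MAX (11.4), MXD3 (10.0), MXI1 (8.29), MNT (7.21) and MXD1 (4.07 CPM per kb). Across the 8 group means the CPM of MXD3 varied 3.11-fold, MXD4 2.91-fold, MXI1 2.13-fold and MYC 2.09-fold. MXD1 (1.74-fold), MNT (1.40-fold), MGA (1.28-fold) and MAX (1.18-fold) varied less, and only 4.01% of tested genes had a smaller standard deviation of log2 CPM over the libraries than MAX.

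MYC, the activator, fell with TAK-981 in both lines, a direction that turned with the GAPDH count as the reference. The MM1S libraries gave 354 and 356 CPM with vehicle and 224 and 219 CPM with TAK-981. In MM1R they gave 415 and 433 CPM with vehicle and 281 and 294 CPM with TAK-981. No treated library reached a vehicle library of its line. The log2 fold change was -0.68 (SE 0.06, adjusted p = 4.45e-08) in MM1S and -0.56 (SE 0.06, adjusted p = 5.38e-07) in MM1R. With the GAPDH count as the reference these values turned to 0.08 (adjusted p = 0.334, not called) and 0.18 (adjusted p = 0.0335). That reference moved the median of all genes to 0.79 and 0.74, and relative to that median MYC stood at -0.72 and -0.56. GAPDH itself averaged 1664 CPM with vehicle and 988 CPM with TAK-981 in MM1S, and 1995 and 1196 CPM in MM1R.

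Dex moved MYC the other way in MM1S, to 456 and 471 CPM (log2 0.39, SE 0.06, adjusted p = 5.53e-05), the highest group of the series. In MM1R the Dex libraries gave 379 and 423 CPM, which overlapped vehicle, and the difference between the lines in the Dex response was -0.47 on the log2 scale (SE 0.09, adjusted p = 0.000496). With combo, MYC stood at 256 and 279.7 CPM in MM1S, above TAK-981 alone (log2 0.27, SE 0.06, adjusted p = 0.00206) and below Dex alone (log2 -0.79, SE 0.06, adjusted p = 7.15e-09). The MM1R combo libraries, at 284 and 293 CPM, overlapped those of TAK-981 alone. Against vehicle, combo changed MYC by -0.41 (SE 0.06, adjusted p = 1.63e-05) in MM1S and -0.56 (SE 0.06, adjusted p = 6.20e-07) in MM1R.

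MAX, the shared partner, moved little. Its 16 values lay between 39.9 and 48.7 CPM. In MM1S vehicle gave 41.8 and 39.9 CPM, TAK-981 48.0 and 45.8, Dex 46.6 and 47.6, and combo 47.9 and 47.8 CPM, so every treated library was above both vehicle libraries. The log2 changes were 0.20 with TAK-981 (SE 0.07, adjusted p = 0.0215), 0.20 with Dex (SE 0.07, adjusted p = 0.0209) and 0.23 with combo (SE 0.07, adjusted p = 0.00745). These calls rested on single libraries: the TAK-981 call was lost without vehicle replicate 2 (log2 0.16, adjusted p = 0.141) or TAK-981 replicate 1 (log2 0.16, adjusted p = 0.108), the Dex call without vehicle replicate 2 (adjusted p = 0.135) or Dex replicate 2 (adjusted p = 0.107), and the combo call without vehicle replicate 2 (adjusted p = 0.0671). In MM1R, MAX stood at 41.6 and 41.6 CPM with vehicle, 43.5 and 42.1 with TAK-981, and 48.7 and 44.8 with combo. The TAK-981 change there was 0.04 (95% interval -0.11 to 0.20), and the combo change of 0.17 (adjusted p = 0.0414) was lost without vehicle replicate 1 (adjusted p = 0.133), vehicle replicate 2 (adjusted p = 0.145) or combo replicate 1 (log2 0.11, adjusted p = 0.334).

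MXD1, a repressor partner induced in many differentiating cells, rose with TAK-981 in both lines. It stood at 32.8 and 32.7 CPM with vehicle and 41.5 and 39.6 with TAK-981 in MM1S, and at 23.0 and 24.5 against 30.8 and 32.4 CPM in MM1R. Combo gave 39.8 and 42.9 CPM in MM1S and 33.1 and 33.6 in MM1R. The TAK-981 and combo libraries were above vehicle in each line. The log2 change was 0.31 (SE 0.09, adjusted p = 0.00769) in MM1S and 0.41 (SE 0.09, adjusted p = 0.000987) in MM1R, and with combo 0.34 (adjusted p = 0.00332) and 0.49 (adjusted p = 0.000199). Dex gave 37.4 and 30.7 CPM in MM1S, on either side of vehicle (log2 0.06, 95% interval -0.15 to 0.26), and without Dex replicate 1 the value was -0.09, while in MM1R it gave 26.7 and 24.0 CPM. With vehicle, MXD1 was lower in MM1R than in MM1S by a log2 difference of -0.46 (SE 0.09, adjusted p = 0.000419).

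MXD3, a family member expressed in proliferating cells and associated with S phase, fell with each drug in MM1S and most with both, although the TAK-981 value turned above 0 with the GAPDH count as the reference. Vehicle gave 26.6 and 30.2 CPM and TAK-981 16.9 and 21.5 CPM. Dex gave 17.1 and 19.9 CPM, and combo 11.3 and 9.57 CPM. The combo libraries were below all other libraries of the series, and the TAK-981 and Dex libraries lay between combo and vehicle. The log2 changes from vehicle were -0.57 with TAK-981 (SE 0.12, adjusted p = 0.000826), -0.62 with Dex (SE 0.12, adjusted p = 0.000469) and -1.45 with combo (SE 0.13, adjusted p = 2.84e-08). Combo differed from TAK-981 alone by -0.88 (SE 0.14, adjusted p = 6.98e-05) and from Dex alone by -0.83 (SE 0.14, adjusted p = 9.55e-05). The term for departure of the pair from additive log2 effects was -0.26 (95% interval -0.69 to 0.17) and did not pass.

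In MM1R, MXD3 stood at 33.6 and 31.3 CPM with vehicle, 23.3 and 25.9 with TAK-981, 27.5 and 32.9 with Dex, and 25.7 and 24.7 with combo. The TAK-981 and combo libraries were below vehicle, whereas Dex overlapped it. The log2 change with TAK-981 was -0.40 (SE 0.12, adjusted p = 0.00765), and the call was lost without vehicle replicate 1 (log2 -0.35, adjusted p = 0.0628) or TAK-981 replicate 1 (log2 -0.33, adjusted p = 0.0855). The combo change of -0.37 (adjusted p = 0.0124) was lost without vehicle replicate 1 (adjusted p = 0.0906) or combo replicate 2 (adjusted p = 0.0792). The Dex responses of the lines differed by 0.52 (SE 0.17, adjusted p = 0.0263), a call that was lost on leaving out MM1S vehicle replicate 2 (adjusted p = 0.125), MM1S Dex replicate 1 (adjusted p = 0.0941), MM1R vehicle replicate 2 (adjusted p = 0.0979) or MM1R Dex replicate 2 (log2 0.38, adjusted p = 0.129). With the GAPDH count as the reference the TAK-981 value of MXD3 turned to 0.18 in MM1S (adjusted p = 0.162, not called) and 0.34 in MM1R (adjusted p = 0.0125). Relative to the median of all genes under that reference it was -0.61 and -0.40.

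MXD3 overlaps PRELID1 on the other strand. In the GENCODE 29 annotation of GRCh38 the 2 genes share 1158 exonic bases, 22.5% of those of MXD3, and no source used here states whether counting used strand, so reads in that stretch cannot be assigned. PRELID1 was measured at 1085 to 3189 counts. Its log2 change in MM1S was 0.09 with TAK-981 (adjusted p = 0.487), -0.01 with Dex (adjusted p = 0.947) and -0.63 with combo (SE 0.10, adjusted p = 4.71e-05). In MM1R the PRELID1 value with TAK-981 was -0.26 (adjusted p = 0.0340). PRELID1 thus did not pass with either drug alone in MM1S, where MXD3 did, and fell with combo in MM1S and with TAK-981 in MM1R, as MXD3 did. With combo in MM1R, where MXD3 was called lower, PRELID1 did not pass (-0.15, adjusted p = 0.202). How much it contributed to the MXD3 values was not tested.

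MXD4, a repressor partner of resting and differentiating cells, rose with TAK-981 more than any other member. MM1S gave 66.9 and 75.3 CPM with vehicle and 125 and 135 CPM with TAK-981. MM1R gave 47.5 and 49.8 CPM with vehicle and 81.0 and 82.3 CPM with TAK-981. The treated libraries were above vehicle in each line. The log2 change was 0.87 (1.83-fold, SE 0.07, adjusted p = 5.40e-09) in MM1S and 0.75 (1.68-fold, SE 0.07, adjusted p = 7.56e-08) in MM1R, and the difference between the lines did not pass (-0.13, 95% interval -0.35 to 0.10). Of all tested genes, 85.5% had a smaller absolute log2 change with TAK-981 in MM1S.

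Dex alone also raised MXD4 in MM1S, to 101 and 111 CPM (log2 0.58, SE 0.07, adjusted p = 1.79e-06), but combo was not higher still. It gave 111 and 116 CPM in MM1S, below both TAK-981 libraries, and the departure from additive log2 effects was -0.78 (SE 0.10, adjusted p = 2.92e-05). The difference of combo from TAK-981 alone, -0.20 (adjusted p = 0.0264), was lost without TAK-981 replicate 2 (log2 -0.14, adjusted p = 0.180), combo replicate 1 (adjusted p = 0.151) or combo replicate 2 (adjusted p = 0.0588). In MM1R Dex gave 44.1 and 45.4 CPM and combo 85.1 and 83.8 CPM, so that Dex lay below vehicle without passing (log2 -0.12, 95% interval -0.29 to 0.04) and combo lay above Dex by 0.92 (SE 0.07, adjusted p = 6.08e-09). Against vehicle combo raised MXD4 by 0.67 (adjusted p = 1.01e-07) in MM1S and 0.79 (adjusted p = 3.35e-08) in MM1R. The Dex responses of the lines differed by -0.70 (SE 0.10, adjusted p = 2.92e-05).

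The E-box CACGTG, which reads the same on both strands and is the site MYC-MAX and MXD-MAX dimers recognise, was searched in RefSeq promoters of GRCh38.p14 (250 bases before to 50 after each start). Promoters were found for 7 of the 8 members, MAX, MXD1, MXD3, MXD4, MXI1, MNT and MGA, and those of MXD4 and MNT held the motif, against 8.77% of 27305 genes with a promoter. Among the known MYC-activated targets taken up below, 16 of the 27 with a promoter held it (59.3%). These genes were listed because they are known as MYC targets, so this share was in part set by that choice. HSPD1 and HSPE1, both counted, share the same site. The stretches around the motif, all before the start and read 5′ to 3′ on the gene's strand, are shown with the E-box in capitals for the 2 members and, for comparison, for 3 targets that fell with TAK-981, chosen after their values were seen. A match is a description of these letters and says nothing of binding. They lie at chr4:2262282-2262359 (MXD4, minus strand), chr17:2401188-2401310 (MNT, minus), chr16:87869572-87869697 (SLC7A5, minus), chr2:10448013-10448101 (ODC1, minus) and chr2:197500297-197500422 (HSPD1, minus).
MXD4: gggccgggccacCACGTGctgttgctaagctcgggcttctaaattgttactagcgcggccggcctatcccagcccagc
MNT: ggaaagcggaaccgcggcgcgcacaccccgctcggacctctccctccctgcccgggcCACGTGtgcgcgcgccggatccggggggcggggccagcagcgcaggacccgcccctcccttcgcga
SLC7A5: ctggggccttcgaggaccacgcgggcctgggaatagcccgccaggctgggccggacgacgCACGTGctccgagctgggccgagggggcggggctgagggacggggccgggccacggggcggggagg
ODC1: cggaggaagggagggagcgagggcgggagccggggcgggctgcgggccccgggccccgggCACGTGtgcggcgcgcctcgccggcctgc
HSPD1: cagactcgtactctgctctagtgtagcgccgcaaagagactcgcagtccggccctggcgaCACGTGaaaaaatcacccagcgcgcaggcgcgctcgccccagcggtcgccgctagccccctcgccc

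The motif lay 238 bases before the start of MXD4 and 193 before that of MNT. Of these 5 genes, MXD4 rose with TAK-981, MNT did not pass in either line, and SLC7A5 (the amino acid transporter LAT1), ODC1 (the entry enzyme of polyamine synthesis) and HSPD1 (a mitochondrial chaperonin) fell in either line (log2 -1.05, -0.40 and -0.67 for MM1S, then -1.03, -0.53 and -0.75 for MM1R). The targets shown were chosen because they fell, so their contrast with the members was set by that choice. BCAT1, a target that also held the motif, rose with TAK-981 in MM1R.

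MXI1 (the MXD2 protein), a repressor partner, was the member in which the lines differed most. Vehicle gave 66.8 and 58.5 CPM in MM1S but 34.6 and 31.6 CPM in MM1R, a log2 difference of -0.92 (SE 0.08, adjusted p = 3.68e-08). In MM1S, TAK-981 gave 49.8 and 44.3 CPM, Dex 40.2 and 38.3 CPM, and combo 45.6 and 46.3 CPM. In MM1R they gave 34.2 and 34.1, 34.5 and 35.1, and 29.3 and 29.6 CPM. All treated MM1S libraries were below MM1S vehicle, and all MM1S libraries were above all MM1R libraries.

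The log2 change of MXI1 in MM1S was -0.41 with TAK-981 (SE 0.08, adjusted p = 0.000241) and -0.68 with Dex (SE 0.08, adjusted p = 1.56e-06), and -0.45 with combo (SE 0.08, adjusted p = 8.36e-05). With the GAPDH count as the reference the TAK-981 value turned to 0.35, which was -0.44 relative to the median of all genes. In MM1R the TAK-981 value was 0.05 (95% interval -0.14 to 0.24). The Dex responses of the lines differed by 0.75 (SE 0.11, adjusted p = 6.28e-05). The TAK-981 responses differed by 0.46 (SE 0.11, adjusted p = 0.0271), and MXI1 was the only member to pass there, where 4.16% of all genes did. That call was lost on leaving out MM1S vehicle replicate 1 (log2 0.36, adjusted p = 0.159), MM1S TAK-981 replicate 2 (adjusted p = 0.0630), MM1R vehicle replicate 2 (adjusted p = 0.156), MM1R TAK-981 replicate 1 (adjusted p = 0.109) or MM1R TAK-981 replicate 2 (adjusted p = 0.0900). On top of Dex, TAK-981 moved MXI1 by 0.23 (adjusted p = 0.0273, MM1S) and by -0.24 (adjusted p = 0.0221, MM1R), opposite directions whose difference was not tested. The MM1R call was lost on leaving out any of its 4 libraries (adjusted p = 0.0586 to 0.0969), and the MM1S call without Dex replicate 2 (adjusted p = 0.153), combo replicate 1 (adjusted p = 0.0799) or combo replicate 2 (adjusted p = 0.103). In MM1S the departure from additive effects was 0.64 (SE 0.11, adjusted p = 0.000927).

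MNT, the repressor partner present in most cells and a general antagonist of MYC, rose with Dex in MM1S and did not pass with TAK-981 in either line, except with the GAPDH count as the reference (0.89 in MM1S and 0.85 in MM1R, which is 0.10 and 0.11 relative to the median of all genes). In MM1S vehicle gave 35.0 and 38.3 CPM, TAK-981 37.4 and 43.4, Dex 49.9 and 47.9, and combo 42.9 and 49.2 CPM. TAK-981 overlapped vehicle (log2 0.14, 95% interval -0.06 to 0.34), although it passed without TAK-981 replicate 1 (log2 0.24, adjusted p = 0.0344). Dex was above vehicle by 0.42 (SE 0.09, adjusted p = 0.000640) and combo by 0.33 (SE 0.09, adjusted p = 0.00276), the latter being lost without combo replicate 2 (log2 0.23, adjusted p = 0.0684). The 8 MM1R libraries lay between 33.6 and 38.3 CPM. The Dex responses of the lines differed by -0.37 (SE 0.12, adjusted p = 0.0287), a call lost without MM1S vehicle replicate 1 (adjusted p = 0.136), MM1S Dex replicate 1 (adjusted p = 0.0642), MM1R vehicle replicate 2 (adjusted p = 0.126) or MM1R Dex replicate 2 (adjusted p = 0.0882).

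MGA, the PRC1.6 subunit, showed small increases. In MM1S vehicle gave 280.3 and 270.4 CPM, TAK-981 311 and 307, Dex 322 and 289, and combo 330.0 and 346 CPM. In MM1R vehicle gave 264 and 263 CPM, TAK-981 289.6 and 293, Dex 268 and 261, and combo 289.8 and 286 CPM. The combo libraries of MM1S were above all others. Their log2 change from vehicle was 0.30 (SE 0.06, adjusted p = 0.000208), and it passed on leaving out each library in turn (adjusted p at most 0.00536). The TAK-981 values of 0.17 (adjusted p = 0.0226, MM1S) and 0.14 (adjusted p = 0.0401, MM1R) did not hold: the MM1R call was lost without any of its 4 libraries (adjusted p = 0.112 to 0.156), and the MM1S call without vehicle replicate 1 (adjusted p = 0.0513), vehicle replicate 2 (adjusted p = 0.144) or TAK-981 replicate 1 (adjusted p = 0.0639). The Dex value of 0.15 in MM1S (adjusted p = 0.0430) was lost without vehicle replicate 1 (adjusted p = 0.0810), vehicle replicate 2 (adjusted p = 0.208) or Dex replicate 1 (log2 0.07, adjusted p = 0.403).

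**Figure D2:**
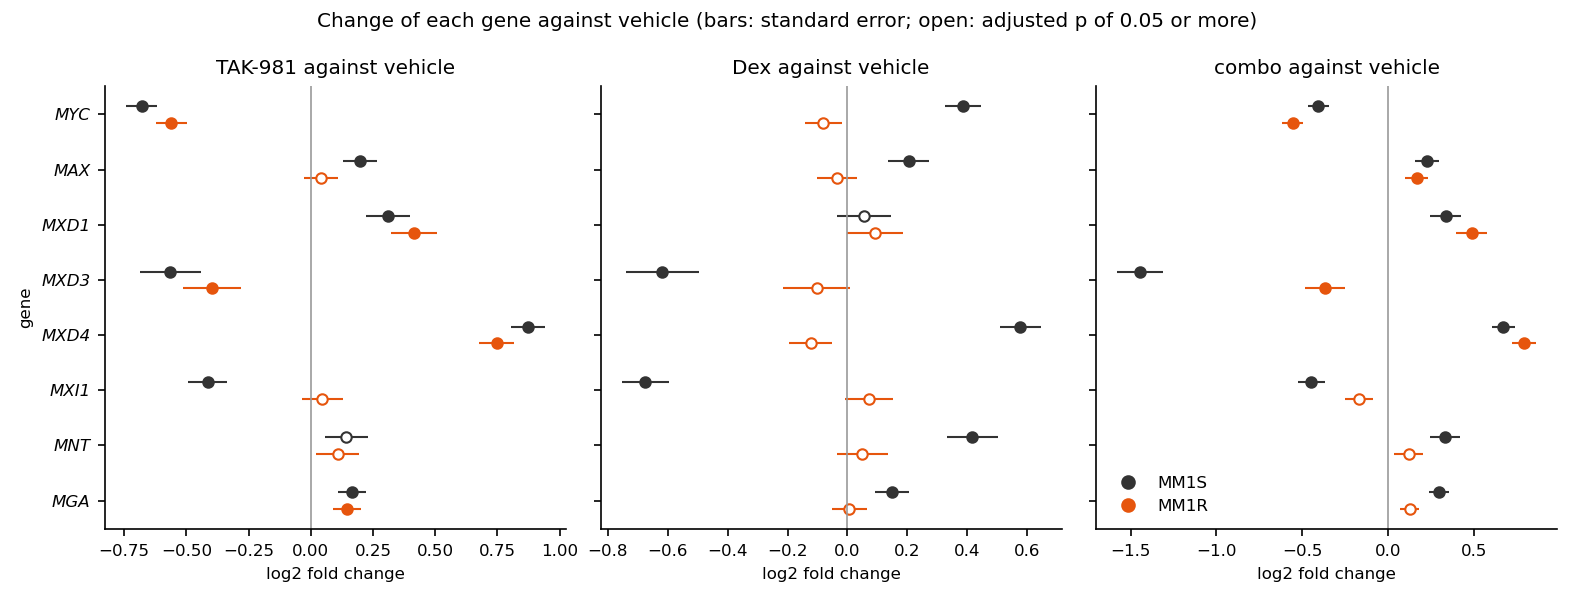
Log2 fold change from vehicle (horizontal axis) of the 8 network genes (vertical axis) for each treatment in either line. Bars are standard errors, filled points have an adjusted p under 0.05 and the panels have their own scales. MXD4 (0.87 and 0.75) and MYC (-0.68 and -0.56) lie on opposite sides with TAK-981 in both lines under the scaling plotted, whereas with the GAPDH count as the reference MYC, MXD3 and the MM1S value of MXI1 move above 0; with Dex all MM1R points are open.

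Because the partners compete for MAX, their levels were set against each other within each library, which removes the choice of scaling. MYC reads per kilobase divided by the summed reads per kilobase of MXD1, MXD3, MXD4 and MXI1 were 2.79 and 2.73 with vehicle, 1.48 and 1.40 with TAK-981, 3.60 and 3.60 with Dex, and 1.92 and 2.05 with combo in MM1S. In MM1R they were 4.44 and 4.71, 2.54 and 2.56, 4.32 and 4.58, and 2.50 and 2.61. In each line TAK-981 lowered the ratio with no overlap, alone and with Dex. Dex alone raised it in MM1S and overlapped vehicle in MM1R, and the MM1R ratio with TAK-981 came close to that of untreated MM1S. These ratios carry no test, and RNA levels do not give the levels of the proteins. MNT and MGA, which also pair with MAX, were left out of the MXD sum. Reads of MXD3 in the stretch shared with PRELID1 cannot be assigned. MYC per MAX, also per kilobase, averaged 11.8 with vehicle, 6.43 with TAK-981, 13.4 with Dex and 7.61 with combo in MM1S, and in the same order 13.9, 9.15, 13.5 and 8.42 in MM1R.

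The make-up of the MXD transcripts shifted as well. MXD4 held 37.2% of their reads per kilobase with vehicle in MM1S, 57.0% with TAK-981, 55.5% with Dex and 56.6% with combo, and 35.4%, 48.8%, 33.4% and 50.4% in MM1R. MXD3 held 18.3%, 10.3%, 11.9% and 6.42% in MM1S and 28.9%, 18.0%, 27.7% and 18.4% in MM1R. MXI1 held 32.8% in untreated MM1S, the second share after MXD4, and 20.5% to 22.9% with any drug, whereas the share of MXD1 stayed between 11.7% and 14.1% in both lines. Per kilobase MXD4 exceeded MXD3 2.04 times in untreated MM1S and 8.91 times with combo, against 1.22 and 2.73 times in MM1R. All values with MXD3 carry the limit given above, that reads in the stretch shared with PRELID1 cannot be assigned. PRELID1 itself fell with combo in MM1S (log2 -0.63).

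**Figure D3:**
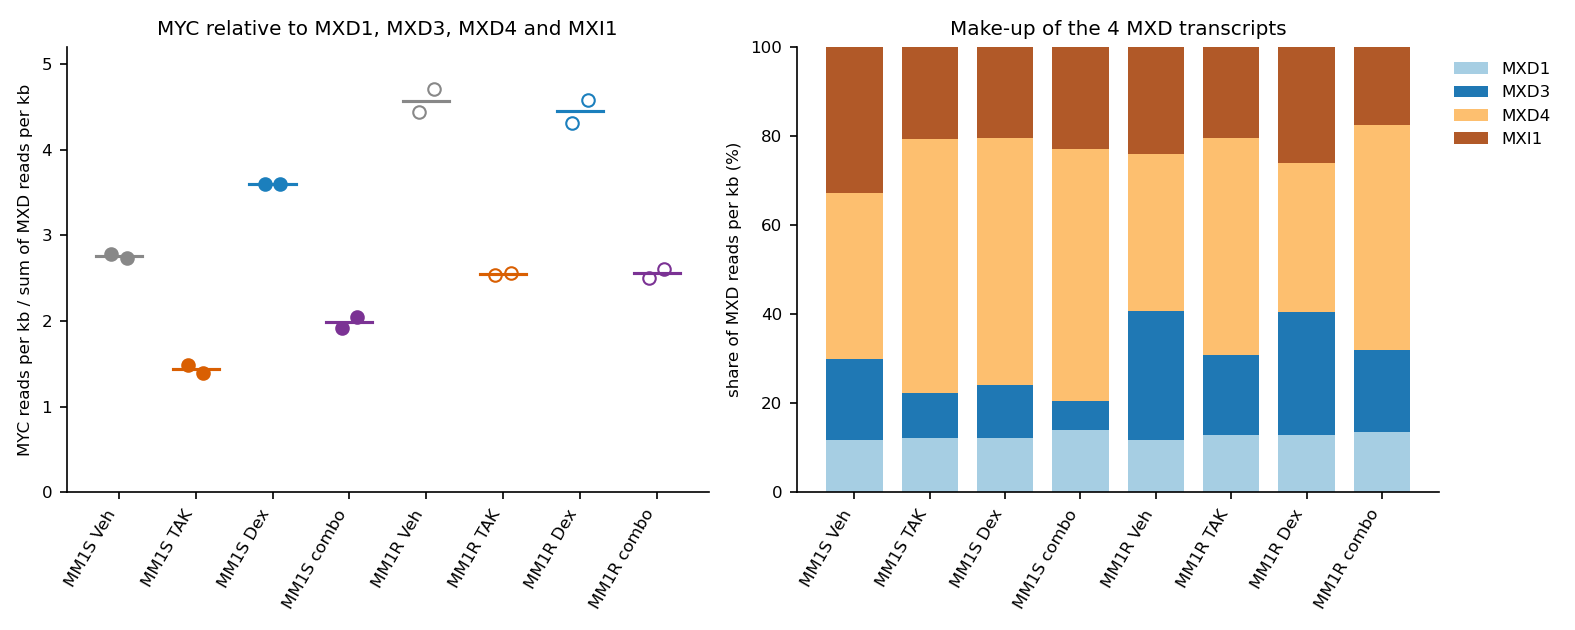
Left, MYC reads per kilobase divided by the summed reads per kilobase of MXD1, MXD3, MXD4 and MXI1 in each library (points, bars are means of 2), by line and treatment. Right, mean share in percent of each MXD transcript in that sum. The ratio falls from 2.76 to 1.44 with TAK-981 in MM1S and from 4.57 to 2.55 in MM1R, while the MXD4 share is 57.0% and 48.8%. MXD3 reads in the stretch shared with PRELID1 cannot be assigned, and MNT and MGA are not in the sum.

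For the remaining comparisons, combo against vehicle changed all 8 members in MM1S (5 higher, 3 lower, 60.3% of all genes) and 5 in MM1R (3 higher, 2 lower, 51.5% of all genes). Combo against Dex changed 5 members in each line (3 higher, 2 lower), where 47.6% of all genes passed in MM1S and 48.4% in MM1R. In MM1S those were MYC, MXD1, MXD3, MXI1 and MGA, of which only MYC and MXD3 passed without Dex replicate 2. The MGA value of 0.15 (adjusted p = 0.0421) was also lost without combo replicate 1 (adjusted p = 0.0509) or combo replicate 2 (adjusted p = 0.208), and stood at 0.07 without Dex replicate 2 (adjusted p = 0.433). In MM1R they were MYC, MAX, MXD1, MXD4 and MXI1. The MAX value of 0.20 (adjusted p = 0.0168) was lost without Dex replicate 2 (adjusted p = 0.0970) or combo replicate 1 (log2 0.14, adjusted p = 0.201). The calls in the same direction in both lines were MYC (-0.79 and -0.48) and MXD1 (0.28, adjusted p = 0.0152, and 0.40, adjusted p = 0.00142), and the MM1S call of MXD1 was lost without Dex replicate 2 (log2 0.14, adjusted p = 0.264) or combo replicate 2 (adjusted p = 0.124). MXD4 stood at 0.10 in MM1S (95% interval -0.06 to 0.25) and 0.92 in MM1R, and MXD3 at -0.83 in MM1S and -0.26 in MM1R (adjusted p = 0.0685), differences between lines that were not tested. All these comparisons share libraries with one another.

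Adding Dex to TAK-981 changed 3 members in MM1S, MYC higher and MXD3 and MXD4 lower. That is 37.5% of the members, near the 35.1% of all genes, so the count says nothing particular of them. In MM1R adding Dex changed no member, as 0% of all genes passed with edgeR or with DESeq2. There 214 genes had an unadjusted p under 0.05, 1 member among them, MXI1 (log2 -0.21). Between untreated lines 4 members differed (MYC higher and MXD1, MXD4 and MXI1 lower in MM1R). This share of 50% lay near the 48.2% of all genes, so the count says nothing particular of the members. The MYC difference was 0.26 (SE 0.06, adjusted p = 0.00205). The repressor partners MXD3 (means of 28.4 CPM in MM1S and 32.5 in MM1R) and MNT (36.7 and 34.9 CPM) were not called. The MXD4 difference was -0.55 (SE 0.07, adjusted p = 5.51e-06). The Dex responses of the lines differed in 5 members against 28.1% of all genes. The departure from additive effects passed for 2 members in MM1S, MXD4 and MXI1, against 14.9% of all genes, and for none in MM1R, where 0% of all genes passed with either tool and MXI1 alone had an unadjusted p under 0.05, of the 400 genes that did.

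Around the network, most genes that MYC is known to activate fell with TAK-981 in both lines, whereas with the GAPDH count as the reference more of them were called higher than lower. Under that reference the median of each of the 9 lists described here lay above 0 with TAK-981, between 0.13 and 0.88, so the list directions below hold for the scaling used. Of 31 tested, 26 fell and none rose in MM1S (83.9% against 49% of all genes, median log2 -0.50, all tested genes 0.04), and 28 fell and 1 rose in MM1R (93.5% against 53.4%, median -0.61, all tested genes 0.00). Examples with small adjusted p were MTHFD2 (mitochondrial folate metabolism, -1.0 in MM1S and -0.80 in MM1R), SLC7A5 (-1.05 and -1.03), SHMT2 (mitochondrial serine metabolism, -0.97 and -1.09), CCND2 (cyclin D2, -0.75 and -0.31) and NPM1 (nucleolar histone chaperone, -0.42 and -0.76). The gene that rose in MM1R was BCAT1, a branched-chain aminotransferase (1.19). With the GAPDH count as the reference the counts turned to 18 higher and 5 lower in MM1S and 14 higher and 4 lower in MM1R, while the medians relative to all genes were -0.54 and -0.61.

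With Dex in MM1S, where MYC rose and 42.3% of all genes passed, 7 of these targets rose and 9 fell (median -0.09). Among the latter were TFRC (the transferrin receptor, -0.86), CCND2 (-0.78), LDHA (lactate dehydrogenase A, -1.58) and SHMT2 (-0.69). In untreated MM1R, 23 of 31 were higher than in MM1S and 1 was lower (median 0.43), where 48.2% of all genes passed. Among the higher were SRM (spermidine synthase, 0.90), NME1 (a nucleoside diphosphate kinase, 0.73) and SLC7A5 (0.65). Combo against Dex lowered 29 of 31 in MM1S and 28 of 31 in MM1R and raised 1 in each, where 47.6% and 48.4% of all genes passed. Dex in MM1R changed none, as 0% of all genes passed.

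The genes that MYC is known to repress showed no common direction in MM1S, whereas those called in MM1R with TAK-981 rose. Of 9 tested, 2 rose and 1 fell with TAK-981 in MM1S and 3 rose in MM1R (33.3% each, all genes 49% and 53.4%). TXNIP, an inhibitor of glucose uptake that MondoA also drives, rose by 1.79 and 1.64, and CDKN1C, a cyclin-dependent kinase inhibitor, by 0.78 and 1.67. CDKN1A fell in MM1S (-0.24, adjusted p = 0.00771). With Dex in MM1S, where 42.3% of all genes passed, 4 rose, TXNIP (1.51) and KLF6 (0.46) among them. Another 4 fell, NDRG1 (-1.23) and CDKN1C (-1.0) among them. Combo against Dex in MM1S raised CDKN1C (1.95) and TXNIP (0.74) and lowered KLF6 (-0.86) and CDKN1A (-0.42), where 47.6% of all genes passed. In MM1R, where 48.4% passed, it raised CDKN1A (0.26), CDKN2B (0.87), CDKN1C (1.07), KLF6 (0.21) and TXNIP (1.64) and lowered none.

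Of 9 tested genes that act on MYC transcription, 1 rose and 4 fell with TAK-981 in MM1S, and 1 rose and 3 fell in MM1R. These shares of 55.6% and 44.4% lay near those of all genes, 49% and 53.4%, so the count says nothing particular of the list. IRF4 fell with TAK-981 as MYC did, with a log2 change of -0.60 in MM1S (SE 0.06, adjusted p = 7.87e-08) and -0.66 in MM1R (SE 0.06, adjusted p = 3.13e-08). With Dex in MM1S IRF4 also fell (log2 -0.90, SE 0.06, adjusted p = 5.91e-10), while MYC rose. PVT1, the long non-coding RNA gene that neighbours MYC, rose with TAK-981, where MYC fell, by 0.49 (SE 0.08, adjusted p = 9.96e-05) in MM1S and 0.79 (SE 0.08, adjusted p = 2.35e-07) in MM1R. Between the untreated lines, however, PVT1 was higher in MM1R (0.27, SE 0.08, adjusted p = 0.0121), as MYC was. HNRNPK, which binds the MYC promoter, fell with TAK-981 (-0.23 and -0.24).

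Of 24 genes of MYC protein turnover, 5 rose and 10 fell with TAK-981 in MM1S (62.5%, all genes 49%) and 2 rose and 11 fell in MM1R (54.2%, near the 53.4% of all genes). FBXO32, an F-box protein that can target MYC, rose by 1.63 in each line and by 2.58 with Dex in MM1S, and its Dex responses differed between the lines by -2.65 (SE 0.11, adjusted p = 2.33e-12). The mitotic kinase genes PLK1 (-1.16 in MM1S and -0.94 in MM1R) and AURKA (-1.26 and -0.99) and KIAA1524 (-1.31 and -0.69), which encodes the phosphatase inhibitor CIP2A, all known to stabilise MYC, fell. With Dex in MM1S KIAA1524 (-1.36), PLK1 (-1.0) and SKP2 (-0.74) fell too. The genes named here were picked by small adjusted p, and others of the list rose. With combo against Dex, the kinase gene PIM1 rose (0.29 in MM1S and 0.31 in MM1R), as did PIM2 (0.18 and 0.69). PLK1, AURKA, KIAA1524 and SKP2 fell in that comparison in both lines.

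Of 15 genes of the SIN3 complex, the corepressor that MXD and MNT recruit, 3 rose and 6 fell with TAK-981 in MM1S (60%, all genes 49%) and 3 rose and 9 fell in MM1R (80%, all genes 53.4%). The histone chaperones RBBP7 (-0.74 and -0.74) and RBBP4 (-0.52 and -0.55) fell in both lines, as did SAP30 (-0.90 and -0.71) and SAP130 (-0.26 and -0.65), and ARID4B rose (0.47 and 0.63). With Dex in MM1S SIN3B, a scaffold of the complex, rose by 0.46 (SE 0.07, adjusted p = 2.15e-05) and ING2 fell (-1.10). ING1 was higher with combo than with Dex alone (1.27) or TAK-981 alone (1.25) in MM1S, and its departure from additive effects was 1.55 (SE 0.12, adjusted p = 8.96e-08).

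Of MGA's 12 partners in PRC1.6, 1 rose and 5 fell with TAK-981 in MM1S (50%, near the 49% of all genes) and 3 rose and 6 fell in MM1R (75%, all genes 53.4%). Those that fell included TFDP1 (the DP1 partner of E2F factors, -0.87 and -1.11), CBX3 (HP1γ, -0.62 and -0.59) and CBX1 (HP1β, -0.49 and -0.47), and RING1 rose in MM1S (0.40). Of 15 germline genes that PRC1.6 silences, 11 were too low to test. Among the 4 tested, MEI1, a meiosis gene, fell with TAK-981 in MM1S (-0.48) and rose with Dex (1.72, SE 0.08, adjusted p = 7.93e-12), SYCP3, a synaptonemal complex gene, fell with Dex (-1.45, SE 0.14, adjusted p = 3.77e-07), and TDRKH rose with Dex (0.49).

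Of 14 MYC coactivator genes, counting ZBTB17 (MIZ1), 2 rose and 5 fell with TAK-981 in MM1S and 1 rose and 6 fell in MM1R, 50% in each line and near the 49% and 53.4% of all genes. ACTL6A (-0.62 and -0.64), RUVBL2 (-0.41 and -0.69) and the acetyltransferase KAT2A (-0.44 and -0.35) fell, and TRRAP, the scaffold that MYC binds, rose (0.25 and 0.15). In untreated MM1R 9 of 14 were higher than in MM1S and none was lower (64.3%, all genes 48.2%). Among related leucine zipper genes MYCL fell with TAK-981 in MM1S (-0.78, SE 0.13, adjusted p = 0.000101) and MYCN with Dex in MM1S (-1.44, SE 0.23, adjusted p = 5.52e-05), whereas MLX, the MAX-like partner, and MLXIP (MondoA) gave values of 0.01 and 0.01 with TAK-981 in MM1S and passed with neither drug.

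**Figure D4:**
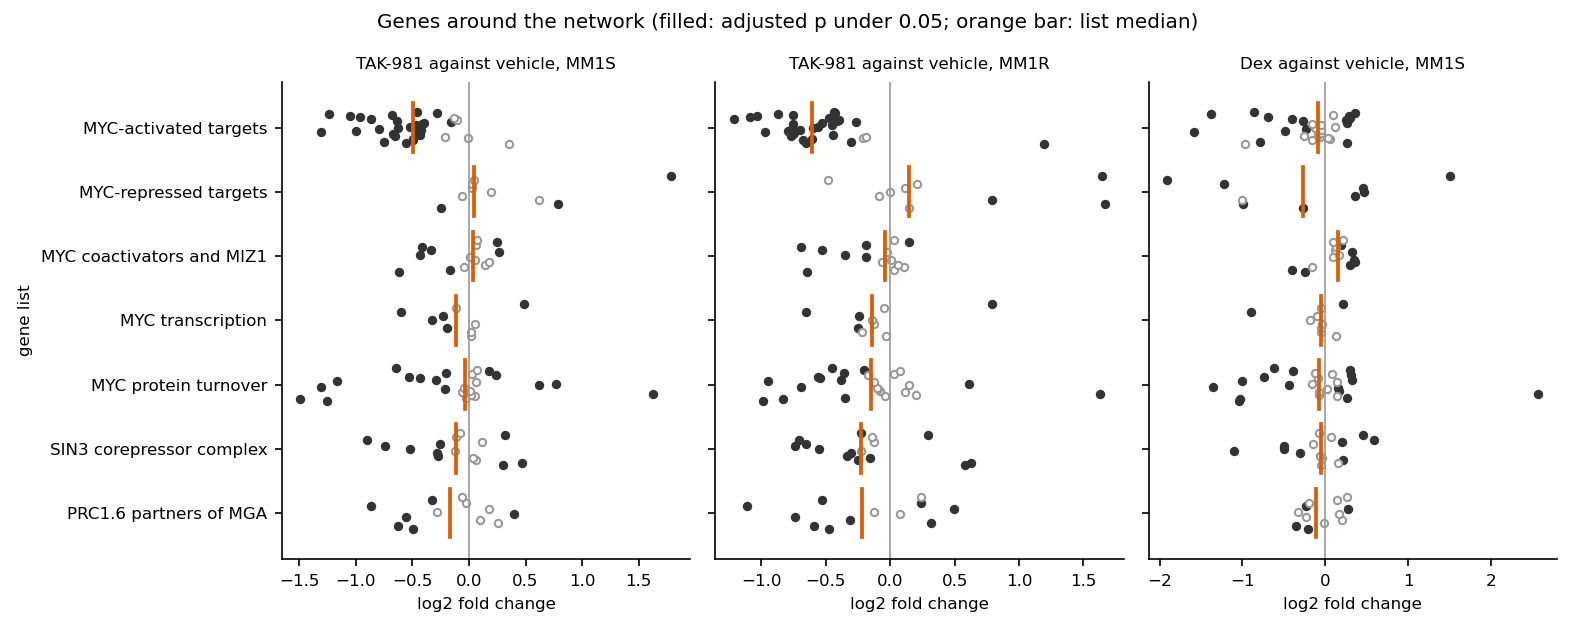
Log2 fold change (horizontal axis) of single genes in 7 lists around the network (vertical axis) with TAK-981 in each line and with Dex in MM1S. Filled points have an adjusted p under 0.05 and orange bars are list medians. The MYC-activated targets lie mostly below 0 with TAK-981 (medians -0.50 and -0.61; with the GAPDH count as the reference both medians turn above 0), and the median is -0.09 with Dex.

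Each member was also set beside the genes most like it, by the root mean square difference of centred log2 CPM over the 16 libraries among 9645 genes. These were SLCO3A1 (0.10) and BZW2 (0.10) for MYC, SUPT7L (0.05) and ELMO2 (0.05) for MAX, ANKRD44 (0.08) and HELQ (0.08) for MXD1, and NRM (0.14) and PHF19 (0.14) for MXD3. For MXD4 they were TSPAN31 (0.10) and YPEL3 (0.11), for MXI1 FUT11 (0.09), for MNT SNX29 (0.06) and KLF13 (0.06), and for MGA SNX1 (0.04) and CDK13 (0.05). The libraries share lines, treatments and depth, and this likeness is a description of them.

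The count table places the genes on hg19 at chr8:128747765-128753680 (MYC, plus strand), chr14:65472819-65569413 (MAX, minus), chr2:70142173-70170076 (MXD1, plus) and chr5:176732501-176739292 (MXD3, minus). MXD4 lies at chr4:2249160-2263739 (minus), MXI1 at chr10:111967363-112047123 (plus), MNT at chr17:2287354-2304258 (minus) and MGA at chr15:41913764-42062141 (plus). Values are sums over each gene, so isoforms are not separated. The span of MAX overlaps CHURC1-FNTB (60 to 88 counts) and FNTB (3 to 13 counts) on the other strand, which share 0 exonic bases with it in GENCODE 29, and the other genes overlapping MAX, MXD4 and MGA had at most 5 counts.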

How the data were processed

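Total RNA of 16 libraries was sequenced. Per the labels, the authors used bcl2fastq 2.18.0.12, STAR 2.6.0, HTSeq 0.6.0 and edgeR 3.28.1 with hg19, and deposited whole-number read counts per gene, without normalization. The strand setting and annotation version are not given in the sources used here.

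From these counts, filterByExpr (minimum count 10, total 15) kept 14215 of 23354 genes, and edgeR 4.0.16 (R 4.3.3) fitted TMM-scaled quasi-likelihood models with 1 term per group and robust dispersion, leaving 8 residual degrees of freedom. Fold changes were tested in 15 comparisons, and p-values were adjusted by Benjamini-Hochberg over all tested genes (threshold 0.05). CPM used TMM-scaled totals, and log2 CPM a prior count of 2. Intervals are 95%. Counting without strand cannot separate overlapping genes. The fitting was tested on simulated data.

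The members and gene lists were chosen with earlier results of these data known, and the lists are known roles from general knowledge. Named genes were all 8 members, up to 4 genes per list and comparison by adjusted p, the 2 genes most like each member (mean log2 CPM of at least 3; 1 of these is not reported here), and the label checks NR3C1, FKBP5, TSC22D3 and GAPDH. Alternatives were RLE scaling, library size only, no filter, a replicate block, DESeq2 1.42.0, only the groups compared, a log2 change of at least 1, GAPDH as reference, and leaving out each library.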

Additional observations from a re-analysis of the deposited data

Results flagged for a closer look

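These values are differences between effects, tested as terms of the same edgeR model. The TAK-981 response of MXI1 differed between the lines by 0.46 on the log2 scale (MM1R minus MM1S). The Dex response differed between the lines, MM1R minus MM1S, by -0.47 for MYC, 0.52 for MXD3, -0.70 for MXD4, 0.75 for MXI1 and -0.37 for MNT. In MM1S the combined effect departed from the sum of the single log2 effects by -0.78 for MXD4 and 0.64 for MXI1. The calls for MXI1 with TAK-981, and for MXD3 and MNT with Dex, were lost on leaving out single libraries. NR3C1 averaged 279.7 CPM in MM1S and 18.9 CPM in MM1R with vehicle, and its part in the Dex differences was not tested. With a single line of each kind, a difference between glucocorticoid-sensitive and resistant cells and a difference between these lines cannot be told apart.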

How the results depend on the processing

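Of 372 recomputed member values under other scalings, filters, models and tools, 343 kept their direction and side of the threshold and 29 kept the direction but no longer passed. On leaving out single libraries 224 of 280 did so, 53 lost and 1 gained the call. The other 2 turned: MXD1 with Dex in MM1S ranged from -0.0941 to 0.19 and MXI1 with TAK-981 in MM1R from -0.0185 to 0.11, neither called at full size. In these fits the lone library is assumed to vary like the other groups. With the GAPDH count as the reference TAK-981 gave MYC 0.0764 (not called) in MM1S and 0.18 in MM1R, MXD3 0.18 (not called) and 0.34, and MXI1 0.35 in MM1S. It also brought 4 values past the threshold, MNT at 0.89 in MM1S and 0.85 in MM1R, and MAX at 0.78 and MXI1 at 0.79 in MM1R, where the median of all genes lay at 0.79 and 0.74.

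Without the filter on low counts the numbers of genes called were 30 for Dex in MM1R, 9 for combo against TAK-981 in MM1R, 1313 for the difference between the lines in the TAK-981 response (592 with the filter) and 19 for the departure from additivity in MM1R. With DESeq2, 3 members passed for combo against Dex in MM1S. Fitting only the groups compared gave 8 members for combo against vehicle in MM1R, 3 for combo against Dex in MM1S, 0 for the line difference in the TAK-981 response, 3 genes for combo against TAK-981 in MM1R and 779 genes for the departure from additivity in MM1S (2125 with all groups). In MM1S it also took away the TAK-981 calls of MAX (adjusted p = 0.199) and MGA (adjusted p = 0.200). The Dex calls of MAX (adjusted p = 0.0807) and MGA (adjusted p = 0.159) in MM1S were lost there too. The cause of these changes was not tested.

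The groups share replicate numbers, and the sources used here do not say what a number marks. The deviations of same-numbered libraries correlated between groups at 0.152 to 0.618 in MM1S and 0.0719 to 0.252 in MM1R, but 2 numbers per group are too few to settle a pairing from the data. A replicate block gave 5 members for combo against TAK-981 in MM1S (3 without it), 2061 genes for the line difference in the TAK-981 response and 3579 genes for the departure from additivity in MM1S.

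Requiring an absolute log2 change of at least 1 left 1412 genes for TAK-981 in MM1S and 1369 in MM1R, 1081 for Dex in MM1S, 2509 for combo against vehicle in MM1S and 1270 in MM1R, 1400 for combo against Dex in MM1S and 1196 in MM1R, and 980 for combo against TAK-981 in MM1S. It left 1256 genes between the untreated lines, 80 and 918 for the line differences in the TAK-981 and Dex responses, and 259 for the departure from additivity in MM1S. The members left were 1 for combo against vehicle in MM1S (MXD3) and 0 in each of those other comparisons.

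On leaving out single libraries the genes called ranged from 0 to 9 for Dex in MM1R, 0 to 1 for combo against TAK-981 in MM1R, 200 to 2292 for the line difference in the TAK-981 response, 0 to 1 for the departure from additivity in MM1R and 1044 to 3724 in MM1S. Members called ranged from 3 to 4 for TAK-981 in MM1R, 3 to 4 for combo against vehicle in MM1R, 2 to 5 for combo against Dex in MM1S, 3 to 5 for combo against Dex in MM1R, 0 to 1 for the line difference in the TAK-981 response and 3 to 5 for that in the Dex response. Scaling by library size alone moved the higher share of calls for the departure from additivity in MM1S from 36.6% to 53.2%, and for the line difference in the TAK-981 response it was 76.5% as fitted, 63.4% without the filter and 54.1% with the block. With 2 libraries per group, small changes such as those of MAX and MGA were at the limit of what could be called.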
